A study of Mus musculus with 3 samples.

Results

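The cells described here were splenic B cells in which transcripts of the markers of atypical, or age-associated, B cells were captured. A barcode was taken when it had 201 to 3499 detected genes, under 15% mitochondrial UMIs (unique molecular identifiers, each marking 1 captured transcript) and a leading hashtag count at least 3 times that of the next. It also had at least 2 UMIs of Cd79a, which encodes a signalling chain of the B cell receptor, and at least 2 UMIs in all from Tbx21, Itgax and Zeb2. No UMI was allowed of Cd3e, Lyz2, Csf1r, Nkg7, Ncr1, Siglech, Fscn1 or S100a8, which mark T cells, phagocytes, NK cells, plasmacytoid and mature dendritic cells and neutrophils. The rule took 887 cells, called gated B cells below, of 32665 barcodes that met the same rule without the Tbx21, Itgax and Zeb2 requirement, and of 47453 barcodes kept in all. The cells were thus chosen by their UMIs of Tbx21, Itgax and Zeb2, and the levels of these genes in them are a description.

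Spleen cells of mice aged 12-14 weeks were depleted of T cells with CD3 microbeads and sequenced as 5′ droplet libraries, each pooling 2 conditions with 3 mice per condition. The control library held male C57Bl/6 mice after sham treatment and female C57Bl/6 mice. The Ang II library held male C57Bl/6 mice given angiotensin II for 2 weeks from 10 weeks of age. It was given at 490 ug/kg/min, as the labels write the dose, alone or with 2-hydroxybenzylamine (2HOBA). 2HOBA is a scavenger of isolevuglandins, which are reactive products of lipid peroxidation. The B6.SLE123 library held female B6.SLE123 mice with or without 2HOBA for 6 weeks from 7 weeks of age. B6.SLE123 is a lupus-prone congenic strain on the C57Bl/6 background. Each library carried 6 hashtags. The labels say that mice of a condition were combined and that each condition was hashed, but tie no hashtag to a mouse or a condition, so whether a hashtag is 1 mouse is not known, and the 2HOBA and untreated mice of a library were not separated, nor were the sham males and the females. Each library was 1 sample, so no test between libraries was possible, and strain, sex and library cannot be told apart between the control and B6.SLE123 libraries. Intervals in parentheses are 95% intervals that cover counting error only.

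Atypical B cells are antigen-experienced B cells that accumulate with age, chronic infection and lupus. T-bet, the transcription factor encoded by Tbx21, drives much of their programme with ZEB2, a zinc-finger repressor encoded by Zeb2, and many carry the integrin CD11c, encoded by Itgax. They are known for low levels of the follicular receptors CD21 and CD23, for the chemokine receptor CXCR3 and inhibitory receptors such as FCRL5, and for responses to Toll-like receptor 7 and interleukin-21.

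The control library gave 12206 B cells, the Ang II library 8741 and the B6.SLE123 library 11718. Library totals were 44146350, 59043555 and 63516694 UMIs in that order. Gated cells were deeper than the other B cells of their library, with medians of 2686 against 1801 UMIs in control, 3880 against 2779 in Ang II and 3862 against 1961 in B6.SLE123. Their median mitochondrial share was 1.94%, 1.75% and 1.60%, against 1.78%, 1.57% and 1.47% in the other B cells. Pairs of libraries shared 415 to 496 barcode sequences, of which 9 to 18 were gated in 1 library and 0 in both.

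Most gated cells of every library were taken on Zeb2 alone, without a transcript of T-bet or CD11c. In the control library 164 of 189 gated cells (86.8%) were taken on Zeb2 alone, and in the Ang II library 160 of 195 (82.1%). In the B6.SLE123 library 270 of 503 (53.7%) were taken on Zeb2 alone, 182 (36.2%) had a Tbx21 UMI and 79 (15.7%) an Itgax UMI. Tbx21 was found in 13 control cells (6.88%) and 30 Ang II cells (15.4%), and Itgax in 13 and 9 cells (4.62% for Ang II). All 3 transcripts were found together in 23 B6.SLE123 cells, Tbx21 with Zeb2 in 132, Itgax with Zeb2 in 49 and Tbx21 with Itgax in 5, while 22 had Tbx21 alone and 2 Itgax alone. The cells are therefore called gated B cells, and those with a Tbx21 or Itgax UMI are named as such.

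**Figure D1:**
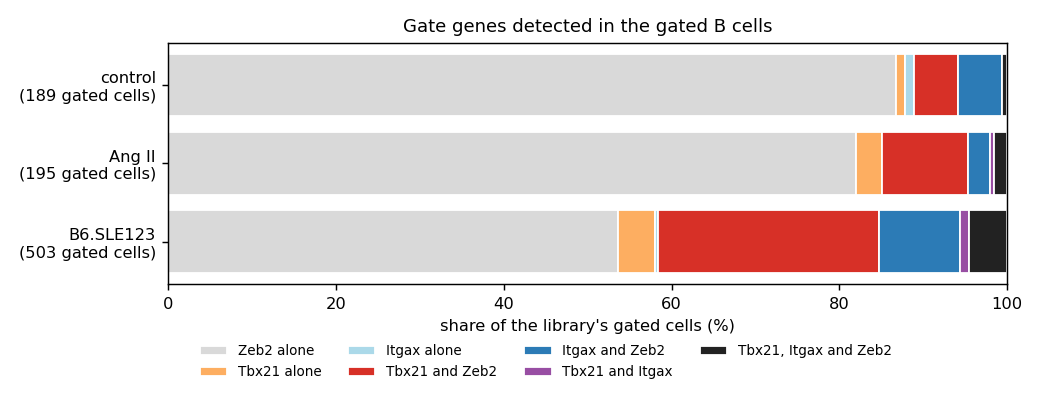
Percent of the gated B cells of each library (x axis) by which of Tbx21, Itgax and Zeb2 had a UMI, as stacked horizontal bars with 1 bar per library (y axis). Zeb2 alone made up 86.8%, 82.1% and 53.7% of the bars, and B6.SLE123 was the library with the widest Tbx21 segments.

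Tbx21 lies at chr11:97098071-97115331 on the minus strand, Itgax at chr7:128129547-128150657 on the plus strand and Zeb2 at chr2:44983632-45117395 on the minus strand (mm10). Tbx21 was at 23.0 CPM (summed UMIs of the gene scaled to a fixed total per group) in the gated cells of the control library, 52.0 in Ang II and 120 in B6.SLE123, against 1.81, 1.34 and 6.10 CPM in the other B cells. Itgax was at 25.9, 19.9 and 53.6 CPM against 0.270, 0.325 and 0.689 CPM. Zeb2 was at 573, 511 and 497 CPM against 37.4, 28.0 and 36.7 CPM. The gate itself shaped these levels in the gated cells, so they were not read as a comparison of the libraries. Just inside the threshold, 148 control, 137 Ang II and 263 B6.SLE123 cells had exactly 2 UMIs, with Tbx21 in 8, 11 and 80 of them. Just outside it, 1025, 821 and 1263 B cells had exactly 1 UMI, with Tbx21 in 47, 37 and 177 of them. Sums of 5 or more were found in 3, 14 and 67 cells, with highest sums of 6, 17 and 14 UMIs.

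Over all B cells, with no cut on the 3 genes, Tbx21 was higher in B6.SLE123 mice and differed little between the C57Bl/6 libraries. It was at 2.36 CPM (1.82 to 3.02) in control, 2.94 CPM (2.34 to 3.64) in Ang II and 14.4 CPM (13.1 to 15.7) in B6.SLE123. The B6.SLE123 over control log2 ratio was 2.60 (2.22 to 3.01), while the Ang II over control ratio was 0.31 (-0.18 to 0.81). By hashtag, Tbx21 lay between 5.80 and 32.0 CPM in B6.SLE123 mice, with a median of 11.1, between 1.5 and 4.60 CPM in Ang II mice and between 0.928 and 3.00 CPM in control mice. All 6 B6.SLE123 hashtags thus lay above all 12 hashtags of the other libraries. Itgax was at 0.938, 0.944 and 4.51 CPM, with log2 ratios to control of 0.01 in Ang II and 2.27 (1.64 to 2.94) in B6.SLE123. Zeb2 was at 51.4, 43.2 and 70.0 CPM, with log2 ratios to control of -0.25 (-0.36 to -0.14) and 0.45 (0.35 to 0.54).

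Free RNA in droplets can give a cell a UMI of a gene it does not express, and neutrophils of the same libraries were used as a cell type that should lack Tbx21. A Tbx21 UMI was found in 0.492% of B cells in control mice, 0.767% in Ang II mice and 3.06% in B6.SLE123 mice, against 0.420%, 0.395% and 0.540% of neutrophils. Median depths were 1808, 2788 and 2008 UMIs in B cells and 1196.5, 2371.5 and 1909.5 in neutrophils. With every cell thinned to 1000 UMIs the B cell shares were 0.190%, 0.177% and 1.18%, and the neutrophil shares 0 of 327 cells in control (0 to 1.12%), 0.207% in Ang II and 0.262% in B6.SLE123 (0.00664 to 1.45). The B6.SLE123 share in B cells at full depth (2.76 to 3.39) lay above the neutrophil interval (0.111 to 1.57), and the thinned share lay inside that of neutrophils, of which few were captured. Both C57Bl/6 shares lay inside the neutrophil intervals of control (0.0509 to 1.51) and Ang II (0.0479 to 1.42). These rested on 2 neutrophils with a Tbx21 UMI in each library. Such wide intervals cannot decide whether the C57Bl/6 shares are background. Zeb2 was found in 9.47%, 11.0% and 13.1% of B cells and 9.87%, 8.30% and 5.94% of neutrophils, and Itgax in 0.164%, 0.206% and 0.845% against 4.41%, 6.72% and 1.62%. Neutrophils can transcribe both of these genes, so no background was set for them.

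The share of B cells that were gated asked how often the marked cells occurred under each condition pair. Gated cells made up 1.55% of B cells in the control library (1.34 to 1.78), 2.23% in Ang II (1.93 to 2.56) and 4.29% in B6.SLE123 (3.93 to 4.68). These shares gave 1.44-fold the control share in Ang II (log2 0.53, 0.23 to 0.82) and 2.77-fold in B6.SLE123 (log2 1.47, 1.23 to 1.72). Of all barcodes kept, the gated cells were 1.18%, 1.39% and 2.87%. The shares were 0.404% (44 of 10880 cells), 0.358% (31 of 8650) and 1.19% (117 of 9854) when each cell was thinned to 1000 UMIs, which left out 1388, 898 and 2180 shallower barcodes. The B6.SLE123 log2 ratio was then 1.55 (1.04 to 2.09), and the Ang II ratio was -0.17 (-0.89 to 0.52), the opposite direction to that at full depth.

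The library difference was widest in the cells with a Tbx21 or Itgax UMI. They were 25 control cells (0.205% of B cells), 35 Ang II cells (0.400%) and 233 B6.SLE123 cells (1.99%). The B6.SLE123 share was 9.71-fold that of control (log2 3.28, 2.68 to 3.94) and the Ang II share 1.95-fold (log2 0.97, 0.19 to 1.77). Thinned to 1000 UMIs, 3, 4 and 46 such cells were left, with log2 ratios to control of 0.75 (-1.82 to 3.52) and 4.08 (2.44 to 6.41). The cells taken on Zeb2 alone were 1.34%, 1.83% and 2.30% of B cells, with log2 ratios to control of 0.45 and 0.78.

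The 6 hashtags of the B6.SLE123 library did not contribute evenly. Gated shares by hashtag ran from 1.28% to 1.86% in control, with a median of 1.56%, from 1.23% to 3.58% in Ang II, with a median of 2.25%, and from 1.03% to 13.8% in B6.SLE123, with a median of 3.16%. Hashtag C0303 of the B6.SLE123 library held 242 gated cells among 1750 B cells, or 13.8% (12.2 to 15.5). The others of that library were at 4.91% (C0302), 3.54% (C0304), 2.79% (C0305), 1.37% (C0301) and 1.03% (C0306), and the lowest of these lay below all 6 control hashtags. Without hashtag C0303 the B6.SLE123 share was 2.62% and the log2 ratio to control 0.76. Shares of cells with Tbx21 or Itgax ran from 0 to 0.365% in control, 0.145% to 0.849% in Ang II and 0.246% to 7.2% in B6.SLE123, with medians of 0.209%, 0.384% and 1.35%. The ranges of gated shares overlapped between all 3 libraries.

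**Figure D2:**
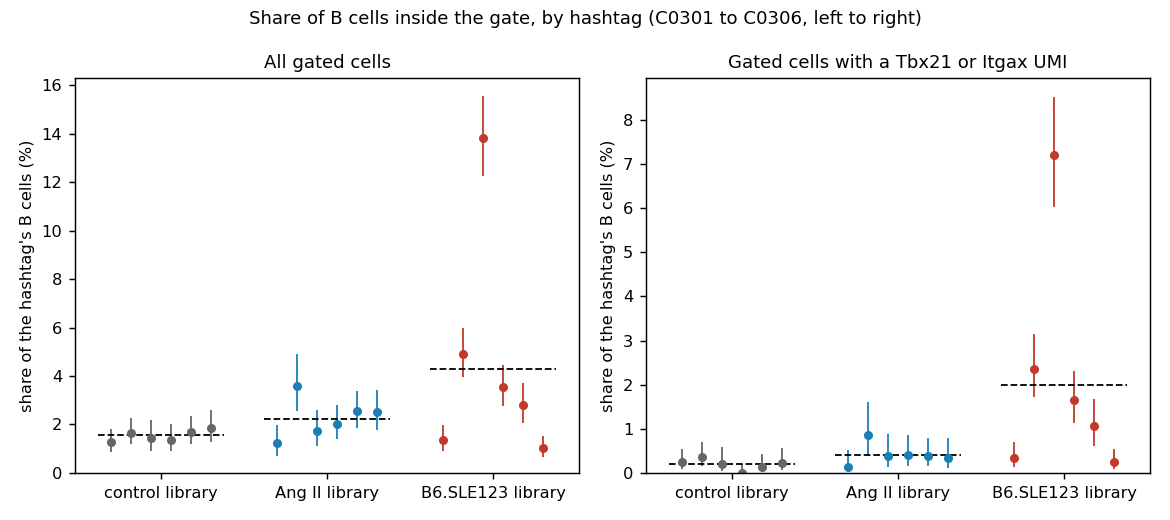
Percent of B cells that were gated (left panel) and percent that were gated with a Tbx21 or Itgax UMI (right panel) for hashtags C0301 to C0306, from left to right within each library. Points are hashtags, bars are Clopper-Pearson 95% intervals and dashed lines the library's pooled share. C0303 of the B6.SLE123 library stands at 13.8% and 7.2%, above every other hashtag.

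Gated B cells were next set against the other B cells of their own library, which asked what else these cells transcribed. A gene was compared where at least 10 UMIs were expected in each group at equal levels, and counted when its CPM differed by at least 2-fold. In the control library 65 of 6566 genes were higher (0.990%) and 131 lower (2.00%), in Ang II 66 of 7452 higher (0.886%) and 114 lower (1.53%), and in B6.SLE123 134 of 9190 higher (1.46%) and 269 lower (2.93%). In all 3 libraries 5 of 6548 genes were higher (0.0764%) and 12 lower (0.183%). The filter used the pooled UMIs of both groups, and the gated group was the smaller. A gene high in gated cells thus needed a higher CPM to be compared than a gene low in them. The numbers higher and lower were therefore not set against each other. The median log2 ratio over all compared genes was 0.03 in control, 0.04 in Ang II and 0.05 in B6.SLE123. Scaling by the trimmed mean of M values moved every ratio by -0.144, -0.106 and -0.153 on the log2 scale in the 3 libraries, and counted 48 higher and 214 lower in control, 50 and 159 in Ang II and 108 and 356 in B6.SLE123. Without control hashtag C0302 the control count of higher genes was 43, and without B6.SLE123 hashtag C0303 that of B6.SLE123 was 81.

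Some atypical B cell genes beyond the gate were at least 2-fold higher in the B6.SLE123 gated cells. The difference between libraries was not tested. Of 12 such genes, 4 of the 11 compared in B6.SLE123 were at least 2-fold higher and 0 lower, with a median log2 ratio of 0.80. In Ang II 1 of 7 was higher and 0 lower, with a median of 0.49, and in control 0 of 7 in either direction, with a median of 0.09. The shares of all genes that were higher were 1.46% in B6.SLE123, 0.886% in Ang II and 0.990% in control. The 4 genes in B6.SLE123 were Cxcr3, Itgam, Fas and Bhlhe40. At its level in the other B cells, Itgam would not have reached the expected UMIs required in the B6.SLE123 gated pool. It was compared through its gated UMIs, so its place among the 4 depended on its being high in gated cells. Of the 4 genes, Cxcr3, Itgam and Fas had too few UMIs expected in control and Ang II to be compared there. The counts of the 3 libraries thus do not cover the same genes.

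Cxcr3, the receptor for interferon-induced chemokines, was at 61.6 CPM in gated and 14.1 CPM in other B cells of B6.SLE123 mice (log2 2.13, 1.84 to 2.41), from 139 UMIs in 97 gated cells. By hashtag the lowest, median and highest levels there were 10.8, 58.0 and 86.8 CPM in gated against 4.93, 11.2 and 37.7 CPM in other B cells. The gated level was the higher one within all 6 B6.SLE123 and all 6 Ang II hashtags, although the ranges overlapped in B6.SLE123. Hashtag C0303 gave 74 of the 139 gated UMIs in B6.SLE123, at 66.1 against 37.7 CPM, which was under 2-fold. In the Ang II library the levels by hashtag were 8.94, 16.5 and 27.4 CPM against 0.437, 1.70 and 3.31 CPM (log2 3.35 over the library), from 16 UMIs. In control mice it was higher in 3 of 6 hashtags, and 15 of the 17 UMIs came from hashtag C0302. With no cut on the gate genes, Cxcr3 in all B cells was at 1.84, 2.24 and 17.5 CPM in control, Ang II and B6.SLE123, so the other B cells of B6.SLE123 mice also held more of it than C57Bl/6 B cells.

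Itgam, which encodes the integrin chain CD11b, was at 34.1 against 4.03 CPM in B6.SLE123 mice (log2 3.08, 2.65 to 3.51), from 77 UMIs in 60 gated cells. Its hashtag levels there were 21.2, 29.6 and 39.3 CPM in gated against 1.18, 3.50 and 8.50 CPM in other B cells, with no overlap. The log2 ratios were 3.64 in control and 2.62 in Ang II, from 12 gated UMIs each. Fas, the death receptor of activated and germinal centre B cells, had log2 ratios of 1.17 in control and 1.51 in Ang II, where too few UMIs were expected to count it, and 1.17 (0.85 to 1.49) in B6.SLE123. Bhlhe40, a transcriptional repressor induced on activation, had ratios of 0.79, 1.31 and 1.54 (1.20 to 1.86). Fcrl5, an inhibitory Fc receptor-like protein, had ratios of 0.45 (-0.01 to 0.88), 0.96 and 0.97, all under 2-fold. Fas, Bhlhe40, Fcrl5 and Itgam were each higher in gated cells in 15 of 18 hashtags.

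Other members of the list did not share a direction. Apoe, which encodes a lipid carrier, was lower in B6.SLE123 (59.8 against 99.0 CPM, log2 -0.73) and higher in Ang II (249 against 138 CPM, log2 0.85). Runx3, a partner of T-bet in other lymphocytes, had log2 ratios of -0.28 in control, -0.27 in Ang II and 0.55 (0.26 to 0.82) in B6.SLE123. Cd38, an ectoenzyme, had ratios of 0.25, 0.41 and 0.80. Cd86, a costimulatory ligand for CD28, had ratios of -0.48, 0.49 and 0.28, and the interleukin-10 receptor chain Il10ra had ratios of -0.04, -0.19 and 0.42.

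Receptors of follicular B cells were mostly lower in the gated cells, by less than 2-fold in C57Bl/6 mice. Of 8 genes of follicular receptors and homing, 0 in control and Ang II and 2 in B6.SLE123 were at least 2-fold lower, and 0 higher in any library. Their median log2 ratios were -0.38, -0.28 and -0.34. Among all genes compared, 2.00%, 1.53% and 2.93% were at least 2-fold lower. Cr2, which encodes the complement receptors CD21 and CD35, had ratios of -0.69, -0.27 and -0.88. Fcer2a, which encodes CD23, had ratios of -0.95, -0.58 and -1.08. Cd55, a complement decay-accelerating protein, had ratios of -0.90, -0.34 and -1.01. Cr2 and Fcer2a were lower in gated cells in 17 of 18 hashtags each, Cd55 in 18 of 18, and the follicle homing receptor Cxcr5 in 16 of 18 (log2 -0.45, -0.43 and -0.43).

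The hashtag levels showed how far these differences reached. Fcer2a was at 86.0, 187 and 274 CPM (lowest, median and highest) in gated against 246, 318 and 355 CPM in other B cells of control mice. In Ang II mice it was at 148, 286 and 329 CPM against 347, 403 and 415 CPM, which did not overlap, and in B6.SLE123 mice at 31.8, 52.0 and 161 CPM against 79.8, 109 and 158 CPM, which did. Cr2 was at 96.8, 276 and 538 CPM against 340, 465 and 611 CPM in control, at 237, 420 and 509 CPM against 428, 441 and 477 CPM in Ang II and at 74.1, 115 and 220 CPM against 142, 229 and 259 CPM in B6.SLE123. Cr2 thus overlapped in every library, and the other B cells of B6.SLE123 mice were themselves lower in it than those of C57Bl/6 mice.

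Among inhibitory receptors and phosphatases, Cd72 showed the most even difference. Cd72, a C-type lectin co-receptor that recruits the phosphatase SHP-1, was at 393 against 233 CPM in control (log2 0.75, 0.57 to 0.93), 511 against 238 CPM in Ang II (1.10, 0.97 to 1.24) and 714 against 263 CPM in B6.SLE123 (1.44, 1.36 to 1.52). By hashtag it was at 379, 391 and 416 CPM against 214, 224 and 273 CPM in control, at 366, 510 and 547 CPM against 222, 237 and 251 CPM in Ang II and at 409, 603 and 816 CPM against 220, 258 and 331 CPM in B6.SLE123. The gated level was the higher in 18 of 18 hashtags, with no overlap within any library. Fcgr2b, the inhibitory Fc gamma receptor, was higher in 17 of 18 hashtags (log2 0.43, 0.78 and 0.78). Lilrb4a, an inhibitory leukocyte immunoglobulin-like receptor, was higher in 16 of 18 (log2 2.46, 3.09 and 2.27), from 14, 23 and 76 gated UMIs. Of the list, 0 of 9 genes in control, 1 of 9 in Ang II and 2 of 11 in B6.SLE123 were at least 2-fold higher, and 0 lower. The shares higher over all genes were 0.990%, 0.886% and 1.46%.

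**Figure D3:**
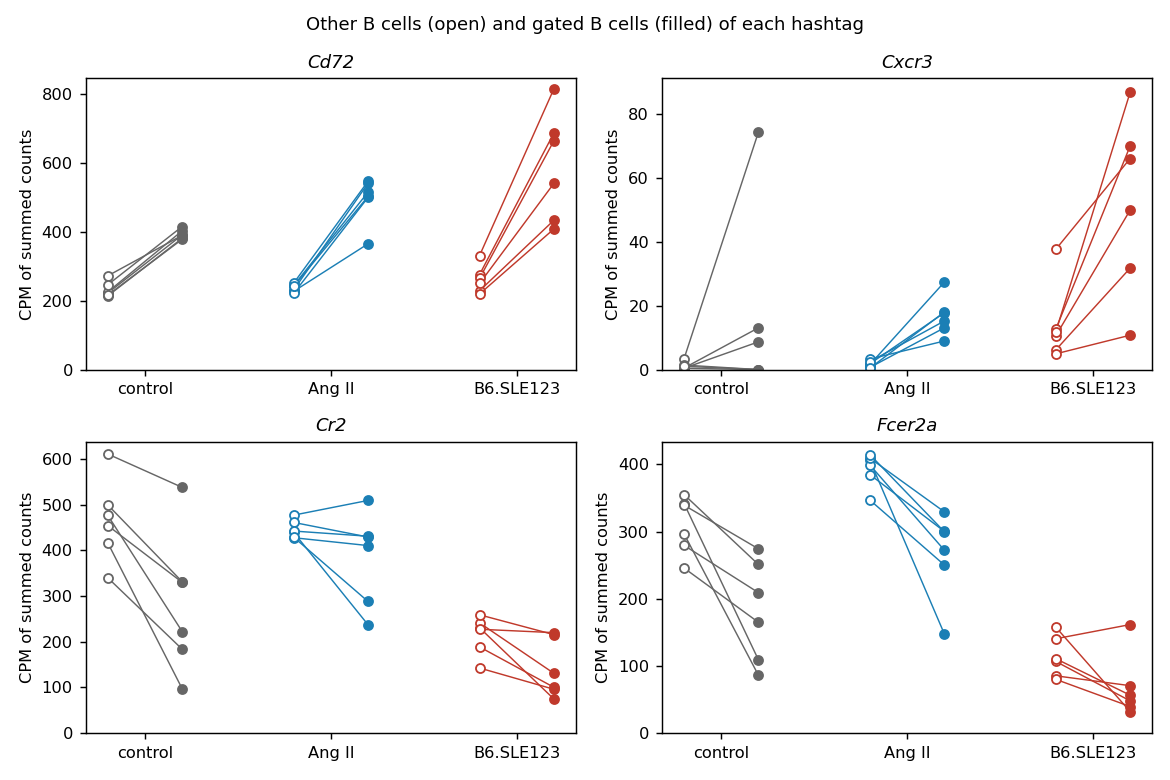
CPM of Cd72, Cxcr3, Cr2 and Fcer2a in the gated (filled) and other (open) B cells of each hashtag, joined by a line, with 1 group of hashtags per library. Cd72 was higher in gated cells in 18 of 18 hashtags and Cxcr3 in 15, while Cr2 and Fcer2a were lower in 17 each.

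Several cytoskeletal and integrin genes known from activated B cells were at least 2-fold higher in the gated cells, although part of this turned with a stricter gate in C57Bl/6 mice. Of 12 activated and memory cytoskeletal genes, 2 of 9 compared were higher in control, 5 of 11 in Ang II and 3 of 12 in B6.SLE123, and 0 were lower in any library. Shares of 0.990%, 0.886% and 1.46% of all genes were higher. Lgals1, which encodes galectin-1, was at 97.9 against 31.0 CPM in control (log2 1.66), 187 against 27.3 CPM in Ang II (2.78) and 178 against 69.5 CPM in B6.SLE123 (1.35). Its Ang II hashtags ran from 35.8 through a median of 90.5 to 536 CPM, and without Ang II hashtag C0302 the ratio there was 1.85. Without control hashtag C0302 the control ratio of Lgals1 was 0.94. Ahnak, a large scaffold protein under the membrane, had ratios of 1.14, 1.55 and 0.83. With 10 more genes of other cells excluded, the control ratios turned to -0.15 for Lgals1 and -0.49 for Ahnak and the Ang II ratio of Ahnak to -0.0740, and Lgals1 in control was at -0.38 when cells were thinned. S100a6, a calcium-binding protein, had a ratio of 1.09 in Ang II, where 1 cell held 58.8% of its gated UMIs.

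Of 11 genes of integrins and chemokine receptors, 1 of 8 compared was higher in control, 1 of 8 in Ang II and 5 of 10 in B6.SLE123. For all genes these shares were 0.990%, 0.886% and 1.46%. Itgb1, the integrin beta 1 chain, had log2 ratios of 1.57, 2.04 and 1.09 and was higher in 17 of 18 hashtags. Its levels were 60.7, 83.8 and 118 CPM by hashtag in gated control cells against 24.1, 27.5 and 35.2 CPM in other B cells, with no overlap. Itgb2, the partner chain of CD11b and CD11c, had ratios of 0.49, 0.46 and 1.26. Ccr6, the receptor for CCL20, differed in direction between libraries, with ratios of -0.40, 0.30 and 1.24. It was at 182 against 76.8 CPM in B6.SLE123, where it was higher in 5 of 6 hashtags and ran from 42.4 through 152 to 216 CPM in gated against 63.1, 70.7 and 116 CPM in other B cells. Without hashtag C0303 the B6.SLE123 ratio of Ccr6 was 1.10.

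The sensors and signalling receptors that atypical B cells are known to use differed by less than 2-fold. Of 9 genes of the endosomal Toll-like receptor pathway, 0 were past 2-fold in any library. Tlr7, the sensor of single-stranded RNA, had log2 ratios of 0.20, 0.36 and 0.63 (0.22 to 1.03 in B6.SLE123). Tlr9, the sensor of unmethylated CpG DNA, had ratios of 0.46, 0.78 and 0.71, and Unc93b1, the chaperone that carries both to endosomes, had 0.37, 0.39 and 0.43. Il21r, the receptor chain for interleukin-21, had ratios of -0.27, 0.11 and 0.67 (0.50 to 0.84 in B6.SLE123), and without hashtag C0303 the last was 0.40. Irf8, a B cell and myeloid transcription factor, had ratios of 0.11, 0.56 and 0.73 and was higher in 6 of 6 B6.SLE123 hashtags. In the lists of cytokine receptors and STATs, B lineage transcription factors, B cell receptor signalling and antigen presentation, 0 genes were past 2-fold in any library.

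**Figure D4:**
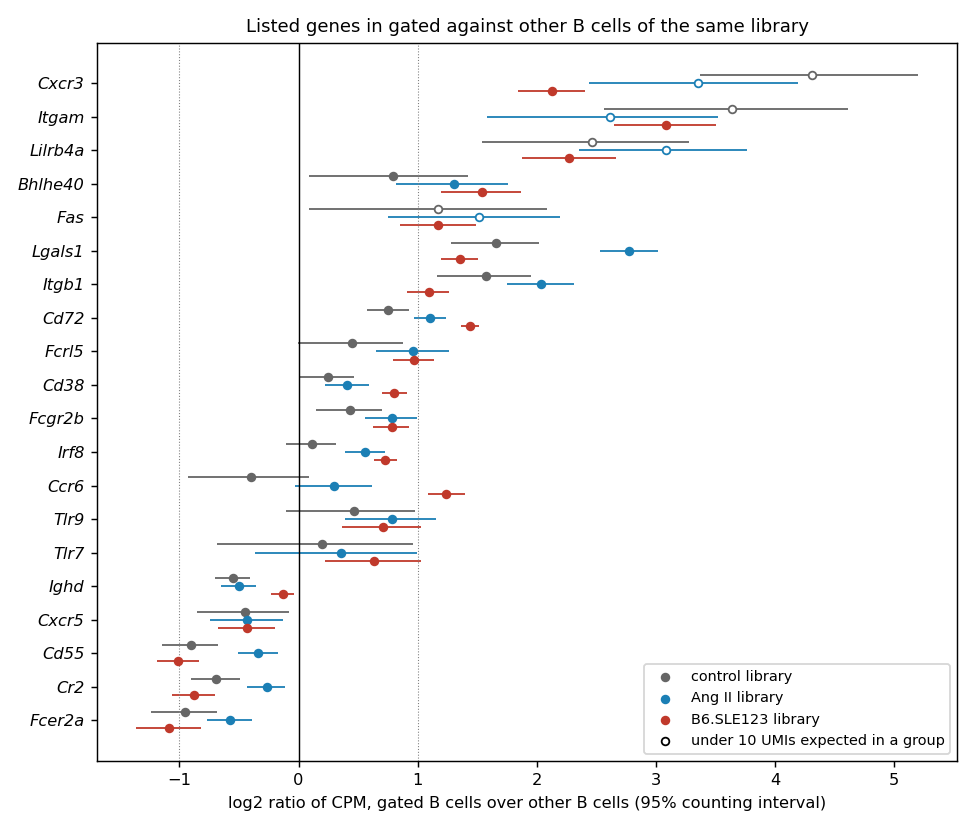
Log2 ratio of CPM in gated over other B cells (x axis) for 20 listed genes (y axis) in the 3 libraries, with 95% counting intervals. Open symbols had under 10 UMIs expected in a group, and dotted lines mark 2-fold. Cxcr3, Itgam and Cd72 lie to the right in B6.SLE123 (2.13, 3.08 and 1.44), and Cr2, Fcer2a and Cd55 to the left in all 3 libraries.

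Genes named by rank, as those with the ratio furthest from 0 in the library where it was smallest, ran in the same direction in all 3 libraries by construction. Hivep3, which encodes a large zinc-finger DNA-binding protein and lies at chr4:119733784-120138045 on the plus strand, was at 48.9 against 17.2 CPM in control, 44.2 against 13.4 CPM in Ang II and 45.6 against 14.7 CPM in B6.SLE123. Its log2 ratios were 1.51, 1.72 and 1.63, and it was higher in 18 of 18 hashtags. Among survival genes, Bcl2a1b and Bcl2a1d, near-identical copies encoding the anti-apoptotic protein A1 whose reads may be split between them, had ratios of 0.95, 1.42 and 1.42 and of 1.31, 1.5 and 1.58. Batf, an AP-1 factor of activated lymphocytes, had ratios of 0.89, 0.95 and 1.17. Fgr, a Src-family kinase, had ratios of 0.98, 0.82 and 1.32, and Cfp, which encodes the complement factor properdin, had 1.40, 0.94 and 2.14.

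The other genes higher by this rule were Lgals1, Itgb1 and Ahnak, given above, with Litaf, Haus8 and Ly6c2. Litaf, an endosomal membrane protein, had log2 ratios of 1.54, 1.23 and 0.83, and Haus8, a subunit of the spindle complex augmin, had 0.88, 0.80 and 1.24. Ly6c2, a surface antigen of monocytes with a near-identical copy in Ly6c1, had ratios of 1.61, 1.55 and 1.07, but 1 cell held 36.7%, 40.5% and 53.6% of its gated UMIs. Without that cell its ratios were 0.95, 0.80 and -0.04.

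The 12 genes lowest by the same rule had varied functions. Neurl3, a RING-type ubiquitin ligase, had log2 ratios of -1.05, -1.09 and -1.04 and was lower in 18 of 18 hashtags. Rnf144a, another ubiquitin ligase, had ratios of -1.03, -0.80 and -1.25, and Rflnb, a binding partner of the actin crosslinker filamin, had -1.04, -1.76 and -0.89. Each was lower in 17 of 18 hashtags. Pdcd1lg2, which encodes the PD-1 ligand PD-L2, had ratios of -1.66, -0.87 and -0.66 and was lower in 14 of 18 hashtags, and without hashtag C0303 the B6.SLE123 ratio was -0.0464. Hopx, a homeodomain protein, had ratios of -0.92, -0.96 and -0.73, Tmem108, a transmembrane protein, -1.13, -0.92 and -1.36, and Abca1, the cholesterol exporter, -0.55, -0.76 and -1.07. E230001N04Rik, Usp53, Fcer2a and D730003I15Rik were also among them.

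The B6.SLE123 gated cells were lower in germinal centre transcripts than the other B cells of their library. Of 8 germinal centre genes compared there, 6 were at least 2-fold lower and 1, Fas, higher, beside 2.93% lower and 1.46% higher of all genes compared. In control 1 of the 8 was compared and 0 passed 2-fold. The list sum in control leaned the other way, with a log2 ratio of 0.39 (0.02 to 0.74). Mef2b, a transcription factor of germinal centre B cells, had a log2 ratio of -1.62 and Gcsam, a germinal centre signalling protein, -2.43. Of the plasma cell genes 2 of 8 were lower there, 1 of 4 lower in Ang II (1.53% of all genes) and 2 of 4 higher in control (0.990% of all genes). The control value rested on few cells: Jchain, the joining chain of secreted IgM and IgA, had a ratio of 2.53, 1 cell held 82.0% of its gated UMIs, and without that cell the ratio was 0.05.

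Most gated cells carried unswitched heavy chains. Of gated cells with at least 3 heavy chain constant UMIs, those mostly of a switched isotype were 3 of 175 (1.71%) in control, 5 of 182 (2.75%) in Ang II and 19 of 462 (4.11%, 2.49 to 6.35) in B6.SLE123. The other B cells were at 0.321%, 0.523% and 3.90%. Among B6.SLE123 cells with Tbx21 or Itgax the share was 12 of 212 (5.66%), and among those taken on Zeb2 alone 7 of 250 (2.80%). Ighd, the IgD constant gene of naive B cells, had log2 ratios of -0.55, -0.50 and -0.13. Immunoglobulin genes gave 3.89%, 1.97% and 3.19% of UMIs in gated cells against 2.20%, 2.70% and 6.02% in other B cells. Barcodes with at least 20 Jchain UMIs, as in plasma cells, were 6 of 503 gated and 242 of 11215 other B cells in B6.SLE123. They were 2 and 17 in control and 0 and 32 in Ang II. Without them 178 genes were at least 2-fold lower in B6.SLE123 gated cells, against 269 with them, and 127 higher, against 134. Their part in the immunoglobulin values was not tested. Of the immunoglobulin constant genes 1 of 5 was lower in control, 1 of 5 in Ang II and 6 of 9 in B6.SLE123. All genes compared were lower at shares of 2.00%, 1.53% and 2.93%. In B6.SLE123 1 immunoglobulin constant gene was higher. That gene was Ighg3 (log2 1.08), of which 1 cell held 90.1% of the gated UMIs, and without it the ratio was -2.26.

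Of the 6 listed B1 cell genes, 0 of the 1 compared in control and 0 of the 1 in Ang II passed 2-fold. The list included Vpreb3, which is also a gene of early and transitional B cells. The other listed genes had too few UMIs expected there, so these counts say nothing of most B1 genes in C57Bl/6 mice. In B6.SLE123 mice 3 of 4 B1 genes compared were higher, beside 1.46% of all genes. They were Spn, which encodes CD43 (log2 1.62), the repressor gene Bhlhe41 (1.52) and Zbtb32, a zinc-finger regulator of memory responses (1.02). Of the proliferation genes 4 of 4 were higher in control, 0 of 2 in Ang II and 0 of 7 in B6.SLE123. Among all genes compared, 0.990%, 0.886% and 1.46% were higher. Mki67, the proliferation antigen, came from 110 UMIs in 12 control gated cells, of which 1 held 29.1%, with a log2 ratio of 2.81, or 2.32 without that cell.

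Markers of other cell types moved with the gate, those of monocytes and macrophages in all 3 libraries. The 10 genes of that list summed to 353 CPM in gated against 128 CPM in other B cells of control, 310 against 113 CPM in Ang II and 646 against 181 CPM in B6.SLE123 (log2 1.47, 1.45 and 1.84). Past 2-fold and higher were 1 of 2, 2 of 3 and 4 of 5 genes compared, and 5, 5 and 0 of the 10 were at 0 in the gated cells. Of all genes, 0.990%, 0.886% and 1.46% were past 2-fold and higher. The 8 dendritic cell genes summed to 620.4 against 319.9 CPM in control (log2 0.96, 0.81 to 1.10), 241 against 291 CPM in Ang II and 288 against 305 CPM in B6.SLE123, and 1 cell held 51.0% of the gated Cst3 UMIs in control. The 10 NK and T cell genes summed to 46.1 against 10.3 CPM in control (log2 2.16, 1.59 to 2.70), 22.1 against 11.8 CPM in Ang II (log2 0.90) and 19.9 against 19.0 CPM in B6.SLE123. The neutrophil list was lower in gated cells of all 3 libraries (log2 -1.13, -0.53 and -0.83). C1q transcripts were found in 0, 0 and 14 gated cells and Fcgr4, an Fc receptor of monocytes, in 1, 1 and 15, with 11 of the 14 C1q cells in hashtag C0303. With these cells left out the B6.SLE123 log2 ratios were 2.11 for Cxcr3, 3.05 for Itgam and 1.43 for Cd72, while Fcer1g, the Fc receptor gamma chain, went from 2.64 to 1.53. With 10 more genes of other cells excluded, Cd72 had ratios of 0.88, 1.17 and 1.31 and Cxcr3 2.36 in B6.SLE123, where Fcer2a had -0.95, Cr2 -0.57 and Cd55 -1.28. Doublets with phagocytes were removed only where hashtags or excluded genes showed them, and any other part of such RNA in these ratios was not tested.

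The gated cells with Tbx21 or Itgax were then set against those taken on Zeb2 alone, inside each library. They were deeper, with medians of 4694, 5391 and 4202 UMIs against 2508, 3572 and 3638. In control 40 of 2001 genes were higher (2.00%) and 162 lower (8.10%), in Ang II 91 of 3024 (3.01%) and 150 (4.96%), and in B6.SLE123 159 of 7831 (2.03%) and 222 (2.83%). Cells with Tbx21 or Itgax were the smaller group in control and Ang II, where the filter favoured genes low in them. Cr2 was lower in all 3 libraries (log2 -1.31, -1.65 and -1.01), as was Vpreb3, a surrogate light chain gene of early and transitional B cells (-0.81, -2.25 and -0.86). In B6.SLE123 the cells with Tbx21 or Itgax were also higher in Itgam (1.18), Itgad, which encodes the related integrin chain CD11d (1.95), Fas (0.92), Runx3 (0.71) and Mir155hg, the host transcript of miR-155 (2.00), and lower in Cd55 (-1.23) and the egress receptor S1pr1 (-0.88).

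In the Ang II library 8 of 10 cytoskeletal genes compared were at least 2-fold higher in the 35 cells with Tbx21 or Itgax, beside 3.01% of all genes. S100a6 had a log2 ratio of 3.71, Lgals1 2.90, Ahnak 2.63 and Vim, which encodes vimentin, 2.23. Of all Ang II gated cells, 1 held most of the S100a6 UMIs, as given above. For Lgals1 and Ahnak 1 cell held 27.8% and 18.6%, and hashtag C0302 held 98 of 169 Lgals1 UMIs. Few cells can thus carry these ratios, and their part was not tested. In B6.SLE123 S100a6 went the other way (-2.17). Lists of other cell types moved with this split too. The sum of the monocyte and macrophage list was higher in the cells with Tbx21 or Itgax by 2.62, 0.98 and 1.21 on the log2 scale in control, Ang II and B6.SLE123. The sum of 8 dendritic cell genes was at 2114 against 256 CPM in control (log2 3.05, 2.75 to 3.34), with log2 ratios of 0.31 in Ang II and 0.53 in B6.SLE123. In control 1 cell held 77.5% of the UMIs of Cst3, a protease inhibitor abundant in dendritic cells, among the cells with Tbx21 or Itgax. The NK and T cell list had ratios of 2.22, 0.58 and 0.67. The part of these transcripts in the differences was not tested. Cxcl10, an interferon-induced ligand of CXCR3, was at a log2 ratio of 5.40 in B6.SLE123, with 43.2% of its UMIs in 1 cell.

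Gated cells of the treated and lupus-prone mice were last compared with those of the control library. B6.SLE123 over control, 261 of 6619 genes were higher (3.94%) and 170 lower (2.57%), and Ang II over control, 258 of 6806 were higher (3.79%) and 150 lower (2.20%). Without control hashtag C0302 the Ang II comparison counted 210 higher and 94 lower. The control gated pool was the smallest, at 694674 UMIs against 904133 in Ang II and 2257368 in B6.SLE123. A gene high in control gated cells thus needed a higher CPM to be compared than one high in the other library. The numbers higher and lower were not set against each other. The median log2 ratios over all genes were -0.04 and 0.06. The other B cells of the same libraries were compared in the same way, since a gene that differs between libraries in every B cell says nothing particular of the gated ones, and no test of that difference was possible. The gated pools were also unlike mixtures. Cells with a Tbx21 or Itgax UMI made up 13.2% of them in control, 17.9% in Ang II and 46.3% in B6.SLE123. Hashtag C0303 held 242 of the 503 B6.SLE123 gated cells. Composition and expression cannot be told apart in these ratios.

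Several surface receptors were higher in B6.SLE123 than in control gated cells by more than in the other B cells. Ccr6 had a log2 ratio of 1.89 (1.39 to 2.44) against 0.25 in other B cells, Fcrl5 1.07 against 0.55, Cd72 0.86 against 0.18, Itgb2 0.84 against 0.08 and Il21r 0.80 against -0.14. Fas was at 1.59 in both groups, and Cxcr3 was at 1.33 in gated against 3.52 in other B cells. Cr2 (-1.32 against -1.13), Cd55 (-0.87 against -0.77) and Fcer2a (-1.60 against -1.47) were lower in gated and other B cells alike. Apoe was at -1.32 against -0.51. Of the 12 atypical genes 3 of 10 compared were higher and 1 lower, and of 8 follicular genes 2 were lower. Beside these, 3.94% of all genes compared were higher and 2.57% lower.

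The most different genes by rank in B6.SLE123 gated cells were mostly different in the other B cells too. Ifitm1 and Ifitm2, interferon-induced membrane proteins, had log2 ratios of 8.49 and 7.53 in gated against 9.41 and 10.26 in other B cells, from 2 and 9 UMIs in control gated cells. The ferritin light chain pseudogene Ftl1-ps1 was at 4.30 against 4.46, and the unnamed gene Gm45552 at 4.15 against 3.58. Fabp5, a fatty acid carrier, was at 4.34 against 1.58 and Fcgr4 at 4.01 (2.13 to 7.08) against 2.52, the latter from 105 UMIs in 15 cells against 2 UMIs in control. Ighg3 was at 4.18 against 2.49, with 90.1% of its UMIs in 1 cell, and Hbb-bs, a haemoglobin chain, had 0 UMIs in control and 93.9% of its 212 in 1 B6.SLE123 cell. Hddc3 (3.88) and Sdc3, the proteoglycan syndecan-3 (3.79), completed the higher 10. Control gated cells held 1 UMI each of Fabp5, Hddc3 and Sdc3 and 5 of Gm45552. At their control levels these genes, Ifitm1, Ifitm2, Hbb-bs and Fcgr4 would not have reached 10 expected UMIs. They were compared through their B6.SLE123 UMIs. Without B6.SLE123 hashtag C0303 the ratios were 3.04 for Fcgr4, 2.75 for Sdc3 and 1.07 for Ighg3.

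Lower by rank were Akap12, a kinase anchor protein (-3.41 against -1.04 in other B cells), the cytochrome gene Cyp4f18 (-2.55 against -1.19), Cecr2, a chromatin remodelling factor (-2.26 against -0.57), and E330020D12Rik (-2.17 against -0.06). Siglecg, an inhibitory sialic acid-binding lectin of B cells, was at -1.95 in gated and -1.5 in other B cells, from 144 and 171 UMIs. Gm4258, Pot1b, Pgap1, Fcer2a and Cep89 completed the lower 10. Without B6.SLE123 hashtag C0303 Cyp4f18 was at -1.93.

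**Figure D5:**
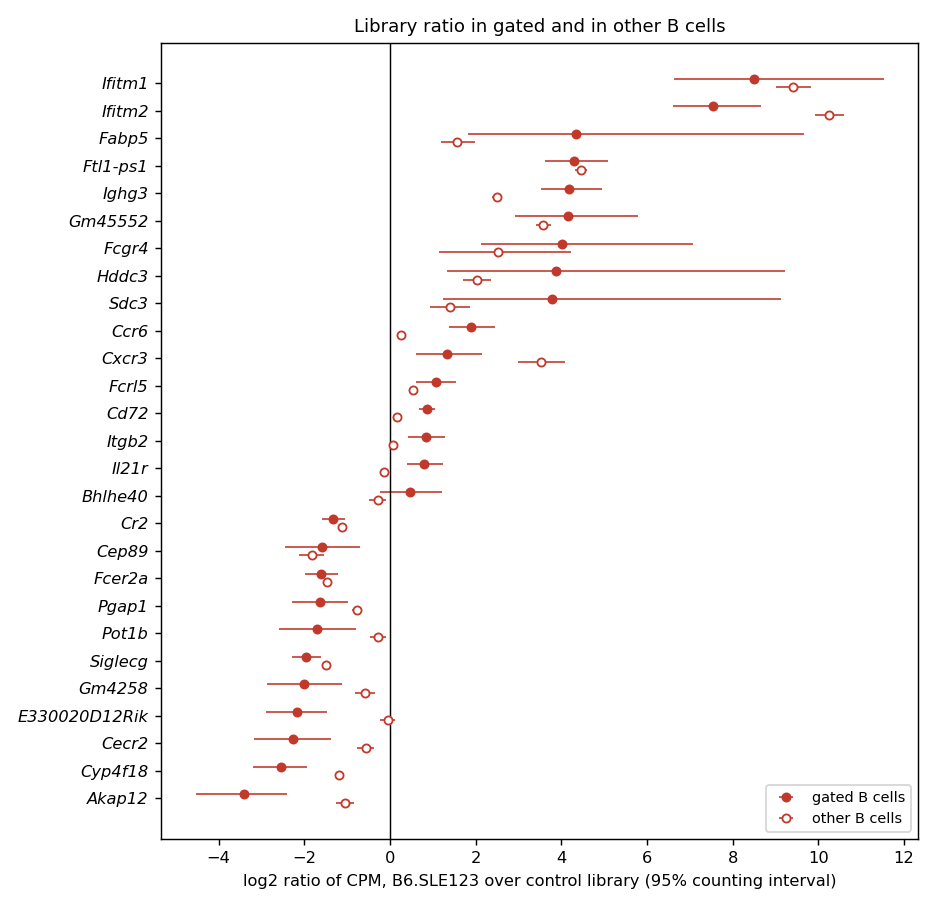
Log2 ratio of CPM in B6.SLE123 over control (x axis) for named genes (y axis), in gated B cells (filled) and in other B cells (open), with 95% counting intervals. Ifitm1, Ifitm2 and Ftl1-ps1 lie far to the right in both groups, while Ccr6 lies at 1.89 in gated and 0.25 in other B cells.

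Ang II gated cells were at least 2-fold higher than control gated cells in Cd86, Spn and S1pr3, and lower in the 5 proliferation genes compared. Cd86 had a log2 ratio of 1.20 against 0.23 in other B cells and Ccr6 0.92 against 0.23. Spn had 1.24, S1pr3, a sphingosine 1-phosphate receptor of marginal zone B cells, 1.39, Lgals1 0.93 and Vim 0.85. For Spn, S1pr3, Lgals1 and Vim the ratio in other B cells is not given here, so these values may hold for all B cells. Highest by rank were Gm47882 (3.08 against 1.49), the granule protein gene S100a9 (2.94 against 2.00), Zbtb32 (2.34 against 0.30), Gm45552 (2.30 against 1.43) and Nrgn, a calmodulin-binding protein (2.17 against -1.33), with Vrk2, Etfdh, Xpnpep1, Ptpn9 and Ppp6r2. Without Ang II hashtag C0302 Zbtb32 was at 1.62. Of Nrgn, 36.2% of 47 UMIs came from 1 cell. The genes highest by rank had 3 to 8 UMIs in control gated cells and were compared through their Ang II UMIs.

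The lower 10 rested on few control cells. Jchain was at -6.38, Ighg2c at -5.36 and Slpi, a secreted protease inhibitor, at -3.06, with 82.0%, 99.7% and 93.3% of the control UMIs in 1 cell each. Without control hashtag C0302 they were at 1.45, 2.45 and 0.35, that is, in the other direction. Egln3, an oxygen-sensing hydroxylase, had 0 UMIs in Ang II and 26 in control, all in 1 cell. Mki67 was at -3.46 against -0.85 in other B cells, Birc5, the cell division protein survivin, at -4.33 against -1.30 and Cenpf, a kinetochore protein, at -3.84 against -1.41, with 27.0% to 42.9% of the control UMIs of the division genes in 1 cell. Ube2c had 0 UMIs in Ang II against 37 in control, and Prc1 and Hist1h1b were the others. Of the proliferation list 5 of 5 genes compared were lower, beside 2.20% of all genes. Leaving out 1 hashtag at a time kept Mki67 between -3.80 and -3.21, while Birc5 was at -2.68 without control hashtag C0302.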

How the data were processed

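The files held UMI counts per gene and hashtag, deposited by the authors as unnormalised whole numbers for the called barcodes of 3 libraries, whose headers name Cell Ranger 6.0.0 and whose submitters' processing notes name mm10, for 32285 genes and 6 hashtag antibodies. Depth was 44146350 to 63516694 UMIs per library. Barcodes were kept and gated by the rule stated above. Hashtags removed doublets of different hashtags but not those within a hashtag. The members, the 23 gene lists (204 genes, of which 203 were in the files) and the comparisons were chosen with earlier results of these data known.

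Counts were summed over the gated and the other B cells of a library or hashtag and given as CPM of that sum. Ratios carry exact conditional 95% intervals and shares Clopper-Pearson intervals, which cover counting error only. With 1 library per group, no p-value was computed. Counts were not fitted with a model across samples for the same reason. Genes with at least 10 UMIs expected in each group were compared, and 2-fold was the limit for counting a gene. A count of 0 was given the floor of 3 counts over the group. Named genes were the 12 highest and 12 lowest by the ratio nearest to 0 over the 3 libraries, the 10 highest and 10 lowest between libraries, and members of the lists, leaving out genes of the rule and immunoglobulin and T cell receptor segments. Mir155hg, Itgad and Cxcl10 were named after their values in the cells with Tbx21 or Itgax were seen.

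Gene positions were from GENCODE vM21 (GRCm38, the same assembly as mm10), which held 32158 of the genes. Python 3.11.15, numpy 2.4.6, scipy 1.17.1 and pandas 2.3.3 were used, and edgeR 4.0.16 for the trimmed mean of M values alone. The ratios and intervals were tested on simulated data with known changes. Alternatives changed the gate, thinned or weighted by depth, left out hashtags, rescaled or dropped the filter. Some results were left out and are not reported here.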

Additional observations from a re-analysis of the deposited data

Results flagged for a closer look

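The share of B cells that were gated under hashtag C0303 of the B6.SLE123 library, 13.8%, lay far from the other 5 hashtags of that library, by a gap larger than Dixon's 95% limit for 6 values. The share gated with a Tbx21 or Itgax UMI under the same hashtag, 7.2%, also passed that limit. Its cells are part of the same 242 gated cells, so it is not a separate observation. Chance marks about 1 in 20 such groups where all 6 values come from 1 population, while these hashtags covered 2 conditions. The hashtag's condition was not given by the labels, and C1q transcripts were found in 11 of its 242 gated cells.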

How the results depend on the processing

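No paired analysis was possible because each group was 1 library and hashtag numbers carry no label that ties mice across libraries. The B6.SLE123 share stayed above the control share under every alternative run. The Ang II share did not: its log2 ratio to control was -0.17 thinned to 1000 UMIs and -0.19 among cells of at least 2000 UMIs, and the cause was not tested. Shares in control, Ang II and B6.SLE123, with the log2 ratios to control where these moved, were 0.336%, 0.664% and 2.05% (0.98 and 2.61) at 3 or more summed UMIs, 0.0737%, 0.194% and 0.785% (1.40 and 3.41) on Tbx21 and Itgax only, 1.15%, 1.31% and 2.27% (0.19 and 0.98) with the gene limits read as UMIs, 1.19%, 1.91% and 3.41% with 10 more excluded genes, and 0.404%, 0.358% and 1.19% when thinned. Among cells of at least 2000 UMIs they were 2.72% in control and 7.53% in B6.SLE123. Genes past 2-fold within control, Ang II and B6.SLE123 numbered 196, 180 and 403, against 6569, 6318 and 5743 with no filter on expected UMIs, 82, 93 and 228 with more excluded genes and 19, 15 and 61 when thinned, where fewer genes passed the filter. Of those with no filter, 6072, 5896 and 5141 were higher, and there the floor of 3 counts stood in for 0 in the smaller gated pools. They numbered 97 in control at 3 or more summed UMIs, and 90 in control and 185 in B6.SLE123 with limits read as UMIs. Between libraries they numbered 408 for Ang II and 431 for B6.SLE123, against 189 and 161 at 3 or more summed UMIs, 227 and 219 with more excluded genes, 3177 and 3897 with no filter, and 253 for Ang II with limits read as UMIs. Leaving out 1 hashtag at a time gave shares of 1.49% to 1.61%, 2.04% to 2.42% and 2.62% to 5.15%, log2 ratios of 0.40 to 0.64 and 0.76 to 1.73, 131 to 204, 158 to 191 and 297 to 405 genes within libraries and 304 to 491 and 353 to 467 between them. The lowest B6.SLE123 values were without C0303.

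Of 2022 values of 106 named-gene results under the alternatives, 1804 moved by less than their counting interval, 190 by more and 28 took the opposite sign. With limits read as UMIs these were Bcl2a1d (-0.0497) and Bcl2a1b (-0.67) in control, Fgr in Ang II (-0.20), and, Ang II over control, Zbtb32 (-0.92), Jchain (1.40), Cenpf (1.40), Slpi (0.40) and Hist1h1b (0.59). At 3 or more summed UMIs they were Fgr in control (-1.53) and Ighg2c (1.66). With more excluded genes they were Lgals1 (-0.15), Ahnak (-0.49) and Rflnb (0.40) in control, Ahnak (-0.0740) and Rnf144a (0.29) in Ang II, and Zbtb32 (-0.0128) between libraries. Thinned to 1000 UMIs they were Lgals1 (-0.38), Rflnb (1.48) and Hopx (1.09) in control, Neurl3 in Ang II (0.26) and Rflnb in B6.SLE123 (0.0272), which was at 0.00742 with other B cells weighted by depth. Without barcodes of 20 or more Jchain UMIs, a choice made after seeing the data like that on C1q and Fcgr4, Ighg2c was at 2.85 and Slpi at 0.75. With 1 hashtag left out at a time, Jchain ran from -6.99 to 1.45, Ighg2c from -6.04 to 2.45 and Slpi from -4.26 to 0.35, each highest without control C0302, and Ly6c2 in B6.SLE123 from -0.0034 without C0303 to 1.24. The number of cells with Tbx21 or Itgax, 25 in control and 35 in Ang II, limited comparisons among them.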
